A study of Mus musculus with 8 samples.

Results

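The *Id* genes *Id1*, *Id2*, *Id3* and *Id4* encode the mouse inhibitor of DNA binding proteins and were taken as the 4 members by their gene names among the 53465 genes of the deposited count table. They were measured by RNA-seq in 8 libraries from the pancreatic ductal adenocarcinoma (PDAC) lines B73 and B87. Both lines derive from primary tumors of the pancreas in KC-shSmad4 mice. The alleles of these mice include Ptf1a-Cre, which is active in the embryonic pancreas, a Rosa26 allele with the Dox-responsive transactivator rtTA3 and the reporter mKate2, and at Col1a1 a doxycycline (Dox)-inducible, GFP-linked short hairpin RNA (shRNA) against *Smad4*. All 8 libraries come from this model and differ in line, Dox and treatment. The study used 2 independent *Smad4* shRNAs, 1 per mouse, and its sources do not say which of them each line carries. If the lines carry different shRNAs, line and shRNA cannot be told apart. Continued Dox defined the Smad4-off state and 5 days of Dox withdrawal the Smad4-on state. In each state cells then received, for 24 h, TGFβ1 at 100 pM or SB505124, which blocks the kinase of the type I TGFβ receptor, at 2.5 µM. This gave 4 groups of 2 libraries, 1 per line. Each line comes from 1 tumor, and no untreated cells and no cells with a control shRNA were among these libraries. The effect of Dox therefore cannot be told apart from that of *Smad4*, nor the effect of added TGFβ1 from that of the inhibitor.

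ID proteins have a helix-loop-helix domain but lack the basic stretch with which other members of that superfamily (bHLH factors) touch DNA. They pair with E proteins, the widely expressed bHLH factors encoded by *Tcf3*, *Tcf4* and *Tcf12*, and the pair cannot bind the E-box. *Id* genes are among the best known direct targets of BMP signaling through SMAD1 and SMAD5 with SMAD4, and in many epithelial cells TGFβ lowers them through SMAD3 and SMAD4. In the pancreas, the acinar program is driven by the bHLH factor PTF1A, which also acts as a dimer with an E protein.

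The members lie on different chromosomes. On GRCm38, *Id1* (ENSMUSG00000042745) spans chr2:152736251-152737410 on the plus strand, *Id2* (ENSMUSG00000020644) chr12:25093799-25097140 on the minus strand, *Id3* (ENSMUSG00000007872) chr4:136143497-136145755 on the plus strand and *Id4* (ENSMUSG00000021379) chr13:48261228-48266026 on the plus strand. Their coding transcripts in GENCODE M21 encode 148 to 168 residues for *Id1*, 134 to 155 for *Id2*, 119 for *Id3* and 161 for *Id4*. The 90 coding bases most alike in all 4 genes fall within the helix-loop-helix domain, and are shown because they are what makes the genes a family. They are given 5′ to 3′ on the coding strand, from GENCODE M21 on GRCm38, with the 54 bases identical in all 4 genes (60%) in capitals.
Id1: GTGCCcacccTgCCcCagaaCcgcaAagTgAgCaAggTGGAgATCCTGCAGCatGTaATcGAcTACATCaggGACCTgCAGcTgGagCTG
Id2: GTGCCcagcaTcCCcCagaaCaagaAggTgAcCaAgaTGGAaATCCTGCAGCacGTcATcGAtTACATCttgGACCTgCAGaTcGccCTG
Id3: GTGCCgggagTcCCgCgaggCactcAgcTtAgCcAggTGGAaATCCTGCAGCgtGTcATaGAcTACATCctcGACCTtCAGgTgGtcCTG
Id4: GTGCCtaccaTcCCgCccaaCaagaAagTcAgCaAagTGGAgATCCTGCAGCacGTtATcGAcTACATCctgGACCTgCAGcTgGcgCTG

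These stretches lie at chr2:152736557-152736646, chr12:25095774-25095863, chr4:136144041-136144130 and chr13:48261732-48261821, each within 1 exon. *Id1* and *Id4* were the most alike in them, with 74 of 90 bases (82.2%) the same, and *Id1* and *Id3* the least, with 60 (66.7%). The longest run of bases shared by any pair was 17, well short of the 75-base reads. Over the whole transcripts, 0 of 1157, 2427, 1716 and 3775 stretches of 75 bases in *Id1*, *Id2*, *Id3* and *Id4* also occurred in a transcript of another gene, so reads could be assigned to 1 member. The exception by position is *Id4*, which overlaps the antisense gene *A330033J07Rik*, listed with 0 counts in every library. It also overlaps the long noncoding RNA gene *Gm49291* on the opposite strand, which is absent from the count table.

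Library totals ran from 18389235 to 23440550 counts. *Smad4* itself followed the labels. Its level in CPM (the counts of a library relative to its TMM-scaled total) was 33.7 to 35.5 in the 4 Smad4-off libraries and 97.4 to 117 in the 4 Smad4-on libraries. The ductal identity of the cells was checked with 7 markers, of which 6 were above 1 CPM in every library, and *Epcam* lay between 0.153 and 2.11 CPM. The ductal markers summed to 3940 to 6210 CPM in B73 and 1220 to 2110 CPM in B87. Markers of acinar and immune cells summed to at most 1.33 and 6.34 CPM, endocrine markers were at 0 counts, and the fibroblast and endothelial lists are given beside the results below.

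*Id1*, *Id2* and *Id3* were expressed in every library, and *Id4* was at the limit of detection. *Id1* was at 56.9 and 50.7 CPM in Smad4-off cells under SB505124 (B73 and B87, in that order here and below), at 149 and 117 in Smad4-on cells under SB505124, at 29.4 and 22.4 in Smad4-off cells under TGFβ1 and at 31.6 and 41.2 in Smad4-on cells under TGFβ1. *Id2* was at 64.3 and 65.9, 83.9 and 87.6, 22.8 and 20.0, and 9.95 and 21.4 CPM in the same order of groups. *Id3* was at 61.2 and 90.1, 143 and 263, 22.4 and 32.3, and 30.1 and 48.4 CPM. All 3 genes were therefore highest in the Smad4-on cells under the inhibitor, and for each of them every SB505124 library lay above every TGFβ1 library. The groups of *Id2* under TGFβ1 overlapped, whereas those of *Id1* did not, and those of *Id3* overlapped across lines but not within a line.

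The group means ordered the conditions in the same way for *Id1* and *Id3*. For *Id1*, Smad4-off cells under TGFβ1 (25.9 ± 5.0 CPM, SD, n = 2) were lowest, followed by Smad4-on cells under TGFβ1 (36.4 ± 6.79), Smad4-off cells under SB505124 (53.8 ± 4.39) and Smad4-on cells under SB505124 (133 ± 22.1). For *Id3*, the means in this order were 27.4 ± 7.01, 39.3 ± 13.0, 75.7 ± 20.4 and 203 ± 85.2 CPM. *Id2* differed in its lowest group, which was the Smad4-on cells under TGFβ1 at 15.7 ± 8.07 CPM, against 21.4 ± 1.96 in Smad4-off cells under TGFβ1, and its SB505124 means were 65.1 ± 1.13 and 85.7 ± 2.62. From the lowest to the highest group mean, *Id1* spanned 5.14-fold, *Id2* 5.47-fold and *Id3* 7.42-fold.

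**Figure D1:**
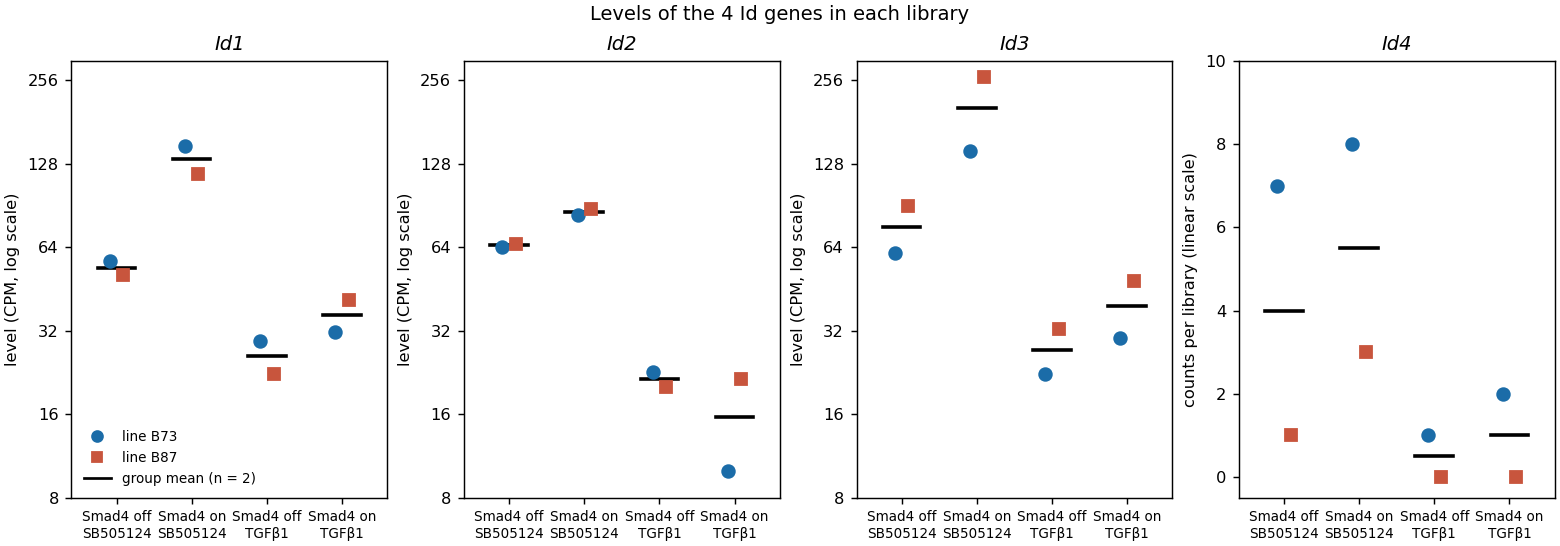
Level of each *Id* gene in each library by condition. Circles are line B73, squares are line B87 and bars are group means (n = 2); *Id1*, *Id2* and *Id3* are in CPM on a log axis and *Id4* in counts on a linear axis. In the first 3 panels all SB505124 libraries lie above all TGFβ1 libraries, and *Id3* of B87 in Smad4-on cells under SB505124 is the highest point at 263 CPM.

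Levels were compared between members only per length of the gene model. In CPM per kb, *Id1* and *Id3* had like group means in Smad4-on cells under SB505124 (115 ± 19.0 and 113 ± 47.6), and *Id2* was at 35.2 ± 1.07. In Smad4-on cells under TGFβ1, *Id1* was at 31.4 ± 5.85, *Id3* at 21.9 ± 7.25 and *Id2* at 6.42 ± 3.31 CPM per kb. *Id1* and *Id3* did not differ beyond the spread of the lines in the first of these groups, and *Id2* was the lowest of the 3 in every library.

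*Id4* had 7, 8, 1 and 2 counts in B73 (Smad4 off and on under SB505124, Smad4 off and on under TGFβ1) and 1, 3, 0 and 0 counts in B87, 22 counts in all against 7991 for *Id2*, the next lowest. A floor of 3 counts corresponds to 0.125 to 0.162 CPM, and only the B73 libraries under SB505124, with 0.349 and 0.432 CPM, had more than 3 counts. The gene did not pass the filter on low counts, and a difference between conditions was not detectable at this depth.

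The largest fitted differences of the members lay between the treatments in Smad4-on cells. There, *Id1*, *Id2* and *Id3* were each lower under TGFβ1 than under SB505124, and all 3 tested members were called, where a call means a Benjamini-Hochberg adjusted p under 0.05 over all 14301 tested genes and a change of more than 2-fold. *Id2* fell by 2.48 ± 0.28 on the log2 scale (fitted difference ± SE, adjusted p = 0.000973), to 0.179 of its level under SB505124. *Id3* fell by 2.35 ± 0.109 (adjusted p = 5.48e-05) and *Id1* by 1.85 ± 0.184 (adjusted p = 0.000605). For background, 8.31% of the tested genes were called lower and 5.62% higher in this comparison, and the median difference of all tested genes was -0.02. The direction was the same in both lines for each gene. The log2 difference was -3.06 in B73 and -2.03 in B87 for *Id2*, -2.23 and -1.51 for *Id1*, and -2.24 and -2.44 for *Id3*.

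In Smad4-off cells the same 3 genes were also lower under TGFβ1, by fitted differences of smaller size, which are compared with those of Smad4-on cells further on. *Id2* fell by 1.60 ± 0.269 (adjusted p = 0.0118), *Id3* by 1.46 ± 0.108 (adjusted p = 0.000784) and *Id1* by 1.06 ± 0.184 (adjusted p = 0.0133) on the log2 scale. All 3 were called, against 2.82% of the tested genes called lower and 3.11% called higher. The lines lay close together here, with log2 differences of -1.50 and -1.72 for *Id2*, -1.45 and -1.48 for *Id3* and -0.95 and -1.18 for *Id1*. The fits without the line (no replicate block) differed between tools. In edgeR the adjusted p was 0.0741 for *Id1*, 0.0811 for *Id2* and 0.142 for *Id3*, and none was called, whereas DESeq2 called all 3 (0.000365, 7.6e-05 and 0.0029). Leaving out the Smad4-off SB505124 library of B73 or the Smad4-off TGFβ1 library of B87 also ended the calls of *Id1* (adjusted p = 0.0622 and 0.13) and *Id2* (0.0604 and 0.109), and leaving out the Smad4-off SB505124 library of B87 ended that of *Id1* (0.0656). Over all 8 libraries left out in turn, adjusted p ran from 0.00202 to 0.13 for *Id1*, from 0.000896 to 0.109 for *Id2* and from 0.00117 to 0.0115 for *Id3*.

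The summed markers of fibroblasts were higher under TGFβ1 in each line and Smad4 state. The 6 markers summed to 3.35 to 161 CPM under SB505124 and 7.55 to 668 CPM under TGFβ1. The highest sum was mostly *Col1a1*, which lay between 0.349 and 627 CPM. Not every marker followed the sum. *Pdgfra* and *Pdgfrb* were highest in the Smad4-on SB505124 library of B87, at 6.41 and 27.2 CPM. *Lum* was at 0 counts and *Dcn* at 3 counts or fewer in every library. The 4 endothelial markers summed to 0.702 to 5.18 CPM under SB505124 and 3.42 to 26.1 CPM under TGFβ1. The highest endothelial sum was mostly *Kdr*, at 25.2 CPM. Per the study's methods, its cell lines were passaged before use to remove nontumor cells. The part of these markers in the differences of the *Id* genes was not tested. In bulk libraries, fewer cells that express a gene and less of its RNA per cell cannot be told apart.

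**Figure D2:**
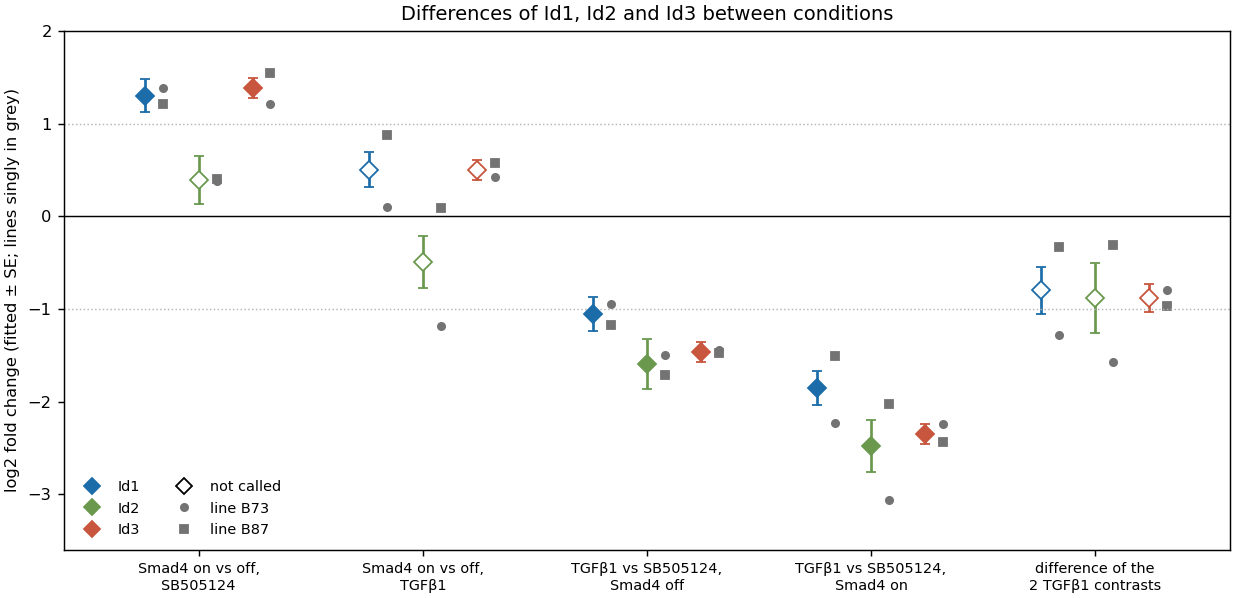
Fitted log2 fold changes of *Id1*, *Id2* and *Id3* (diamonds, ± SE) for 5 contrasts, with the value of each line alone in grey (circle B73, square B87). Filled diamonds were called, open ones were not, and dotted lines mark 2-fold. All 6 diamonds of the treatment contrasts are filled and below 0, from -1.06 to -2.48.

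*Smad4* state was compared next, within each treatment. Under SB505124, *Id1* and *Id3* rose when *Smad4* was on. *Id3* rose by 1.39 ± 0.104 on the log2 scale, 2.62-fold (adjusted p = 0.00341), and *Id1* by 1.30 ± 0.179, 2.47-fold (adjusted p = 0.0213), whereas 0.636% of the tested genes were called higher and 0.455% lower. Of 14301 tested genes, *Id3* had the 230th and *Id1* the 262nd highest fitted difference. The rise was 2.33-fold in B73 and 2.92-fold in B87 for *Id3*, and 2.61-fold and 2.32-fold for *Id1*. *Id2* was 1.32-fold higher and did not pass (log2 difference 0.40 ± 0.257, adjusted p = 0.595), with 1.30-fold in B73 and 1.33-fold in B87. The summed fibroblast markers took opposite directions in the lines here, being lower in the Smad4-on library of B73, at 3.35 CPM, and higher in that of B87, at 161 against 51.4 CPM, and the endothelial markers were lower in the Smad4-on libraries of both, from 2.25 to 0.702 CPM in B73 and from 5.18 down to 2.66 CPM in B87. Their part in the rise of *Id1* and *Id3* was not tested.

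Without the line (no replicate block), edgeR called neither gene, with an adjusted p of 0.659 for *Id3* and 0.233 for *Id1* in a fit that called 2 genes in all, and DESeq2 called both (0.0178 and 8.14e-06). Over all settings other than leaving out a library it ran from 9.14e-23 to 0.659 and from 5.25e-08 to 1.0. The call of *Id1* was lost when any one of the 4 SB505124 libraries was left out, with an adjusted p of 0.152 and 0.177 without the Smad4-off and Smad4-on library of B73, and 0.114 and 0.0587 without those of B87. *Id3* stayed under 0.05 without each of the 8 libraries (0.00352 to 0.0256).

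Under TGFβ1, none of the 3 tested members was called between Smad4-on and Smad4-off cells, where 3.12% of the tested genes were called, 1.31% higher and 1.8% lower. Of the 3 genes, 2 had an unadjusted p under 0.05, as did 3396 of the 14301 tested genes. DESeq2 with and without the line also called 0 of the 3. *Id3* rose by 0.50 ± 0.109 on the log2 scale, 1.42-fold, with an adjusted p of 0.0422. It thus passed the threshold on p, as did 6.8% of the tested genes, but not that on fold. *Id1* was 1.42-fold higher (0.50 ± 0.186, adjusted p = 0.162), with 1.07-fold in B73 and 1.84-fold in B87. Its adjusted p was 0.0331 without the Smad4-on TGFβ1 library of B73 (log2 difference 0.83) and 0.58 without that of B87 (log2 difference 0.15), and with no filter on low counts it was 0.0351, in a range of 0.0351 to 1.0 over the 9 settings with all libraries of the contrast. *Id2* had a log2 difference of -0.49 ± 0.28 (adjusted p = 0.341), and its lines took opposite signs, 0.440-fold in B73 and 1.07-fold in B87. Without the Smad4-on TGFβ1 library of B87, *Id2* was called lower in Smad4-on cells (log2 difference -1.11, adjusted p = 0.021), where the one remaining Smad4-on TGFβ1 library was that of B73, with 195 counts of the gene. Leaving out any one of the 4 TGFβ1 libraries took the adjusted p of *Id3* above 0.05, from 0.147 to 0.262, and without the line in the model (no replicate block) it was 0.643.

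The size of the fall under TGFβ1 was set against *Smad4* state by the interaction of both factors, which uses all 8 libraries and shares them with the comparisons above. The log2 difference between the Smad4-on and the Smad4-off fall was -0.88 ± 0.15 for *Id3*, -0.88 ± 0.38 for *Id2* and -0.80 ± 0.257 for *Id1*. It was negative in each line for each gene, at -0.80 in B73 and -0.96 in B87 for *Id3*, -1.57 and -0.31 for *Id2* and -1.28 and -0.33 for *Id1*. No member passed the test, with adjusted p of 0.122, 0.483 and 0.319 in this order, in a comparison that called 27 genes (0.189%). Of the 3 genes, 2 had an unadjusted p under 0.05, as did 1493 of the 14301 tested genes, and DESeq2 called 0 of the 3. For *Id3*, the adjusted p ran from 0.000736 in DESeq2 with the line to 1.0 over the 8 settings other than leaving out a library, with a fold under 2 in each. A larger fall in Smad4-on cells was therefore not established for any member at 1 library per line and condition.

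Between the lines, *Id3* passed the threshold on p but differed by less than 2-fold. Of the 3 tested members, 0 were called by edgeR and by DESeq2. Of these 3, 1 had an unadjusted p under 0.05, as did 4541 of the 14301 tested genes. *Id3* was 1.59-fold higher in B87 than in B73 (log2 difference 0.67 ± 0.0749, adjusted p = 0.00143) and higher in B87 in 4 of 4 conditions. *Id1* (-0.13 ± 0.128, adjusted p = 0.536) and *Id2* (0.22 ± 0.19, adjusted p = 0.493) did not pass. Between the lines, 8.37% of the tested genes were called and 18.6% passed the threshold on p alone. The summed fibroblast markers were also higher in B87 in each condition and the ductal markers lower, and their part in the difference of *Id3* was not tested. The responses of the members were not shown to differ between lines. For the response to treatment the adjusted p was 0.81 to 0.861 and for the response to *Smad4* 0.605 to 0.783. In the former edgeR called 0 of 14301 genes (0%), with 1198 at an unadjusted p under 0.05 and 25 called by DESeq2, and in the latter 56 (0.392%). For *Id2*, edgeR with no filter on low counts gave an adjusted p of 0.0386 for the line difference in the *Smad4* response. The log2 difference there was 0.59, which is under 2-fold, and it ran from 0.13 to 1.19 when a library was left out.

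*Id1* and *Id3* varied together across the libraries. After the mean of each line was subtracted, Pearson's r of log2 CPM over the 8 libraries was 0.98 for *Id1* and *Id3*, 0.863 for *Id2* and *Id3* and 0.847 for *Id1* and *Id2*. These are descriptions of 8 points that share libraries and the large treatment difference. By the same measure over the 11085 genes whose mean log2 CPM was 1 or more, *Id3* itself was the fifth most like gene to *Id1* (r = 0.98), behind *Lgals3*, *Lamtor1*, *AA986860* and *Galt* (0.98 to 0.99). The 5 genes most like *Id2* were *Hibch*, *Insig2*, *Camk2d*, *Acot2* and *Acbd4* (0.99 to 1.00). Those most like *Id3* included *Ifi202b*, *Lamtor1*, *Suox* and *Zbtb7a* (0.99 to 1.00), and reads of *Ifi202b*, of the Ifi200 family, may be shared with close paralogs. A high r does not mean a like amplitude. *Lamtor1*, in both lists, fell by 0.26 under TGFβ1 in Smad4-on cells on the log2 scale and *Zbtb7a* by 0.25, whereas *Suox*, sulfite oxidase, fell by 2.46.

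The genes that act around the *Id* family were then described list by list, upstream first. Of 12 BMP ligand genes 6 were tested, and between TGFβ1 and SB505124 in Smad4-on cells 3 were called lower and 1 higher (median log2 difference -1.28), where 8.31% and 5.62% of all tested genes were. *Bmp4* was at 7.34 and 41.4 CPM in Smad4-off cells and 9.08 and 78.4 CPM in Smad4-on cells under SB505124, and at 3.99 and 21.7 and 1.48 and 14.9 CPM under TGFβ1. It thus was lower under TGFβ1 in each line and state, and fell by 2.42 ± 0.229 on the log2 scale in Smad4-on cells (adjusted p = 0.0005). *Bmp6* fell by 2.04 ± 0.485 there (adjusted p = 0.0183), at 0.663 to 5.08 CPM over all libraries. *Gdf6* was called lower too (adjusted p = 0.0272), on levels of up to 8.49 CPM in B73 and at most 0.166 CPM in B87. *Bmp2* went the other way, with rises of 1.53 ± 0.319 in Smad4-on cells (adjusted p = 0.0112) and 1.65 ± 0.328 in Smad4-off cells (adjusted p = 0.0212). It was the 1 ligand called in Smad4-off cells, where 3.11% of all tested genes were called higher and 2.82% lower. Between *Smad4* states the lowest adjusted p of a ligand was 0.0849, that of *Bmp4* under TGFβ1. With no replicate block edgeR called none of these 5 differences, with an adjusted p of 0.355 for *Bmp4*, 0.0518 for *Bmp6*, 0.309 for *Gdf6*, and 0.133 and 0.221 for *Bmp2*. DESeq2 without the line lost *Bmp4* (0.327) and *Gdf6* (0.113) and called *Bmp6* (0.0181) and *Bmp2* (0.0427 and 0.0459). Leaving out a library ended the call of *Bmp2* in Smad4-on cells without the TGFβ1 library of B73 (0.0629) or the SB505124 library of B87 (0.0814), and in Smad4-off cells without the SB505124 library of B73 (0.0826) or either library of B87 (0.104 and 0.151). It ended that of *Bmp6* without the Smad4-on SB505124 library of B73 (0.122) or TGFβ1 library of B87 (0.104), and that of *Gdf6* without either Smad4-on library of B73 (0.127 and 0.866) or the SB505124 library of B87 (0.0561).

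Of 10 BMP receptor and co-receptor genes 9 were tested, and 3 were called higher under TGFβ1 in Smad4-on cells and 1 in Smad4-off cells (medians 0.36 and 0.15), against 5.62% and 3.11% of all tested genes. *Acvr1*, which encodes the type I receptor ALK2, was at 34.0 and 28.2 CPM in Smad4-off and 35.6 and 32.4 CPM in Smad4-on cells under SB505124 and at 86.0 and 75.2 and 149 and 127 CPM under TGFβ1. It rose by 2.02 ± 0.0823 on the log2 scale in Smad4-on cells (adjusted p = 3.86e-05) and by 1.38 ± 0.0816 in Smad4-off cells (adjusted p = 0.000467). *Bmpr2*, the type II BMP receptor, rose by 1.29 ± 0.145 in Smad4-on cells (adjusted p = 0.000961), and *Acvrl1*, which encodes ALK1, by 2.33 ± 0.429 (adjusted p = 0.00688) at levels of 0.22 to 3.77 CPM, a call lost without the Smad4-on TGFβ1 library of B87 (0.0557). *Bmpr1a*, the most abundant of the list, lay between 101 and 145 CPM in all libraries and passed no test. With *Smad4* under TGFβ1, *Acvr1* rose by 0.77 ± 0.0788 (adjusted p = 0.0038), which is under 2-fold. The called receptor genes thus moved opposite to the *Id* genes between the treatments.

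The BMP receptor-regulated SMADs differed among themselves. *Smad5* (84.8 to 127 CPM) and *Smad1* (37.4 to 49.4 CPM) were not called in any contrast. *Smad9*, which encodes SMAD8, was at 1.85 and 0.659 CPM in Smad4-off cells and 15.2 and 8.44 CPM in Smad4-on cells under SB505124, and at 0.0996 to 0.969 CPM under TGFβ1. It rose by 3.27 ± 0.47 on the log2 scale with *Smad4* under SB505124 (adjusted p = 0.0245) and fell by 3.94 ± 0.51 under TGFβ1 in Smad4-on cells (adjusted p = 0.00172). The first of these calls was lost with no replicate block in edgeR (adjusted p = 0.467) but not in DESeq2 (0.00312), and it was lost without any one of the 4 SB505124 libraries (0.0749 to 0.215).

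Other genes that BMP-SMAD signaling is known to induce shared at most part of the pattern of *Id1* and *Id3*. Of 12 such genes 9 were tested, and between treatments 2 were called lower and 1 higher in Smad4-on cells and 1 each way in Smad4-off cells. Of all tested genes, 8.31% were called lower and 5.62% higher in Smad4-on cells, and 2.82% and 3.11% in Smad4-off cells. *Smad6*, which encodes an inhibitory SMAD of the BMP branch, was at 13.7 and 17.6 CPM in Smad4-off and 29.8 and 41.0 CPM in Smad4-on cells under SB505124, and at 7.97 and 8.92 and 5.87 and 8.46 CPM under TGFβ1. It was the 1 gene of this list called with *Smad4* under SB505124, where 0.636% of all tested genes were called higher. The rise of *Smad6* was 1.17 ± 0.133 (adjusted p = 0.0122), and the gene fell by 2.31 ± 0.142 under TGFβ1 in Smad4-on cells (adjusted p = 0.000114). Unlike *Id1* and *Id3*, *Smad6* was not called between treatments in Smad4-off cells, and under TGFβ1 it was lower in the Smad4-on library of each line. *Atoh8*, a bHLH factor gene, fell by 4.42 ± 0.505 in Smad4-on cells (adjusted p = 0.00103) and by 3.07 ± 0.513 in Smad4-off cells (adjusted p = 0.0115), and its log2 difference with *Smad4* under SB505124 was 1.65 ± 0.428 (adjusted p = 0.153). *Smad7*, an inhibitory SMAD gene that TGFβ itself induces, went the other way, with rises of 2.48 ± 0.115 under TGFβ1 in Smad4-on cells (adjusted p = 5.48e-05), 1.93 ± 0.116 in Smad4-off cells (adjusted p = 0.000467) and 1.14 ± 0.109 with *Smad4* under TGFβ1 (adjusted p = 0.00317). *Nog*, the gene of the BMP antagonist noggin, was the other one called with *Smad4* under TGFβ1 (2.58 ± 0.413, adjusted p = 0.0162), at no more than 2.96 CPM. In that contrast 1.31% of all tested genes were called higher. *Grem1*, the gene of the antagonist gremlin, was the most abundant of the list at 181 to 792 CPM and was called nowhere. Over the list, the median log2 difference with *Smad4* was 0.85 under SB505124 and 0.31 under TGFβ1, against 0.00 and -0.01 over all tested genes. With no replicate block in edgeR the adjusted p was 0.451 for *Smad6* under SB505124, 0.549 for *Nog*, and 0.0949 and 0.332 for *Atoh8* in Smad4-on and Smad4-off cells. In DESeq2 without the line, *Smad6* (0.0114) and *Atoh8* in Smad4-on cells (0.0193) were called, and *Nog* (0.52) and *Atoh8* in Smad4-off cells (0.244) were not. The call of *Smad6* under SB505124 was lost without any one of the 4 SB505124 libraries (adjusted p 0.0689 to 0.0859), that of *Nog* without any one of the 4 TGFβ1 libraries (0.0641 to 0.122), and that of *Atoh8* in Smad4-off cells without the Smad4-off TGFβ1 library of B73 (0.0689) or B87 (0.11).

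**Figure D3:**
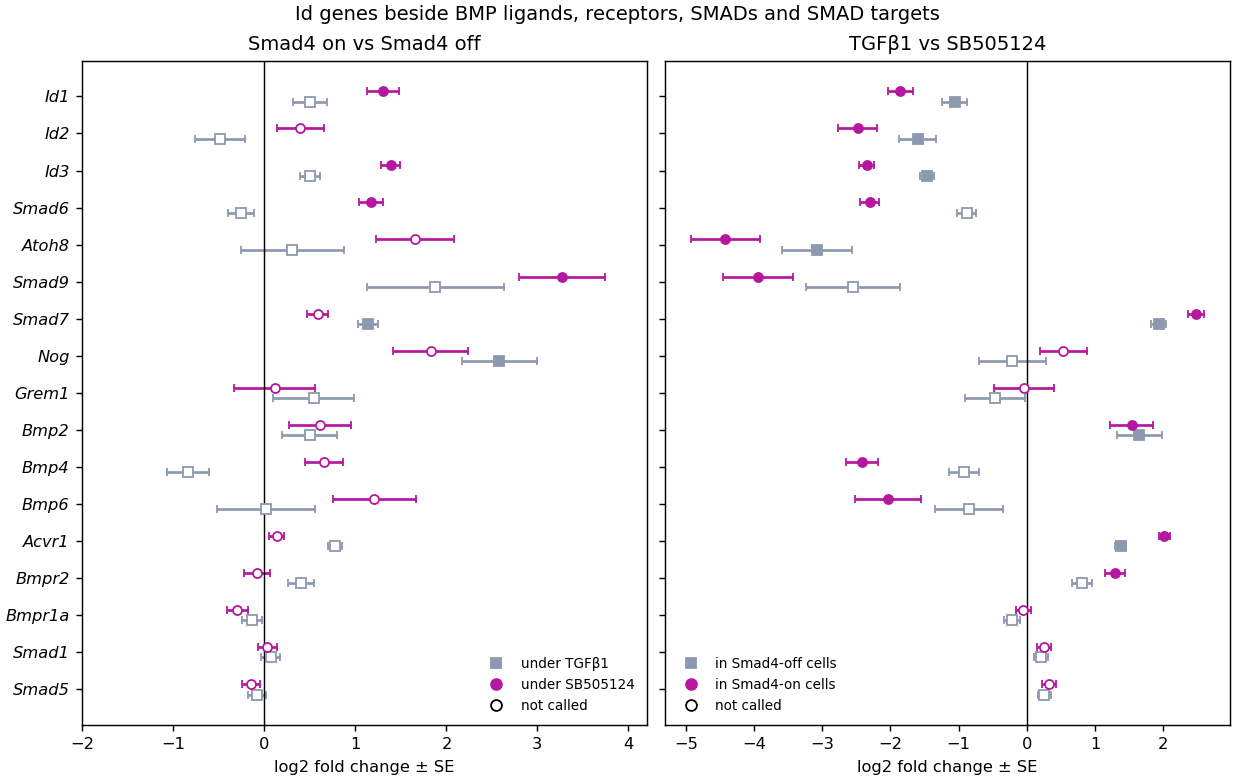
Fitted log2 fold changes ± SE of the *Id* genes and of BMP pathway genes, for Smad4-on against Smad4-off cells (left) and TGFβ1 against SB505124 (right). Circles are the contrast under SB505124 (left) or in Smad4-on cells (right), squares that under TGFβ1 or in Smad4-off cells, and filled symbols were called. *Smad6*, *Atoh8* and *Smad9* lie on the side of the *Id* genes in the right panel, and *Smad7*, *Bmp2*, *Acvr1* and *Bmpr2* on the other.

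The partners of ID proteins were abundant and changed little. *Tcf12* lay between 125 and 170 CPM, *Tcf3* between 120 and 161 CPM and *Tcf4* between 40.1 and 65.0 CPM, and no fitted log2 difference of these 3 genes in the 5 contrasts exceeded that of *Tcf12* in Smad4-on cells. *Tcf12* passed the threshold on p there but not that on fold, with a rise of 0.32 ± 0.1 under TGFβ1 (adjusted p = 0.0463). Of 22 genes for tissue-restricted bHLH factors, the usual dimer partners of E proteins, 3 were tested and *Ptf1a* had 0 counts. *Twist2* fell under TGFβ1 by 2.49 ± 0.28 in Smad4-on cells (adjusted p = 0.000967) and by 1.25 ± 0.257 in Smad4-off cells (adjusted p = 0.0236). *Scx*, the gene of the tendon factor scleraxis, rose by 1.19 ± 0.122 in Smad4-off cells (adjusted p = 0.00218), and *Twist1* (10.6 to 27.5 CPM) passed no test. With no replicate block the adjusted p of *Twist2* was 0.0567 and 0.397 in edgeR and 0.00186 and 0.314 in DESeq2, and its call in Smad4-off cells was also lost without the TGFβ1 library of B73 (0.0911) or either Smad4-off library of B87 (0.124 and 0.187).

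Among 6 genes for the bHLH repressors of the HES, HEY and BHLHE families, 4 were tested. *Bhlhe40* was at 51.7 and 44.4 CPM in Smad4-off and 65.4 and 42.7 CPM in Smad4-on cells under SB505124, and at 202 and 219 and 518 and 357 CPM under TGFβ1. It rose by 3.02 ± 0.183 under TGFβ1 in Smad4-on cells (adjusted p = 0.000114), by 2.15 ± 0.179 in Smad4-off cells (adjusted p = 0.00105) and by 1.02 ± 0.17 with *Smad4* under TGFβ1 (adjusted p = 0.0187). *Hes1*, a Notch target, rose by 1.05 ± 0.15 and 1.01 ± 0.151 under TGFβ1 in Smad4-on and Smad4-off cells (adjusted p = 0.00254 and 0.00755). *Bhlhe41* (35.9 to 66.7 CPM) was called nowhere. The call of *Bhlhe40* with *Smad4* was lost with no replicate block in edgeR (adjusted p = 0.185) but not in DESeq2 (0.00204), and it was lost without the Smad4-off or Smad4-on TGFβ1 library of B73 (0.106 and 0.0972). *Hes1* lay at the 2-fold border, and its calls were lost without either library of B87 in the contrast, with log2 differences of 0.80 and 0.89 in Smad4-on cells and adjusted p of 0.0518 and 0.0757 in Smad4-off cells.

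Of 4 other known regulators or binders of the family, *Atf3*, whose product can act with SMAD3 on the *Id1* promoter, rose by 1.04 ± 0.191 under TGFβ1 in Smad4-on cells (adjusted p = 0.00679). Its log2 difference was 0.58 ± 0.19 in Smad4-off cells (adjusted p = 0.093). The call was lost with no replicate block in edgeR (adjusted p = 0.0956) but not in DESeq2 (0.0415), and it was lost without the Smad4-on TGFβ1 library of B73 (log2 difference 0.78). *Usp1*, the gene of a deubiquitinase of ID proteins (92.9 to 173 CPM), *Rb1* (31.8 to 44.6 CPM) and *Egr1* (7.67 to 47.5 CPM) were not called. Of 5 CDK inhibitor genes, which E proteins or ETS factors are known to activate, 2 were tested. *Cdkn1a*, the gene of p21, was at 158 and 107 CPM in Smad4-off and 197 and 134 CPM in Smad4-on cells under SB505124, and at 252 and 293 and 385 and 387 CPM under TGFβ1. It rose by 1.24 ± 0.201 in Smad4-on cells (adjusted p = 0.00411) and by 1.07 ± 0.202 in Smad4-off cells (adjusted p = 0.0174). The latter call was lost with no replicate block in edgeR (adjusted p = 0.108) but not in DESeq2 (0.000873), and it was lost without the Smad4-off SB505124 or TGFβ1 library of B87 (0.108 and 0.112). *Cdkn1b* fell by 0.41 ± 0.0955 and 0.40 ± 0.0953 in the same contrasts (adjusted p = 0.0173 and 0.038), which is under 2-fold. *Cdkn1c* did not pass the filter, and *Cdkn2a* and *Cdkn2b* had 0 counts. The study reports that the *Cdkn2a/b* locus was homozygously deleted in most of its KC-shSmad4 tumor-derived lines. The state of this locus in B73 and B87 was not examined here.

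Short stretches of the promoters were searched because *Id1*, *Id2* and *Id3* fell together under TGFβ1. The set of promoter windows held no entry for *Id1*, so its promoter was not searched. RefSeq windows on GRCm38.p6 were matched for *Id2*, *Id3* and *Id4*, that is 3 of the 4 members, and the 250 bases before the start were read on both strands for GTCT, the core of the SMAD-binding element, and for GGCGCC and GGAGCC, GC-rich letters that BMP-SMAD complexes can bind. GTCT occurred 2 times in *Id3*, 1 time in *Id2* and in neither strand of *Id4*, and 82.9% of 32851 mouse promoter windows hold it. GGCGCC occurred once each in *Id2* and *Id4*, and 9.59% of windows hold it. GGAGCC occurred once in each of the 3 genes, against 26% of windows. The stretches below show the GTCT and GGCGCC matches in capitals, 5′ to 3′ on the strand of the gene, with AGAC being GTCT on the opposite strand.
Id3, chr4:136143741-136143770, plus strand: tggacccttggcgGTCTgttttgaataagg
Id3, chr4:136143643-136143672, plus strand: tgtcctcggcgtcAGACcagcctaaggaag
Id2, chr12:25096099-25096128, minus strand: gagtgcacataaaAGACgccccgcccggct
Id2, chr12:25096306-25096335, minus strand: tcaggccccctgGGCGCCcagcgcacactg
Id4, chr13:48260956-48260985, plus strand: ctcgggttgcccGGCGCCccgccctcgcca

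The start sites of the windows differ from those of GENCODE M21, where the whole *Id3* window and 161 of the 250 bases of the *Id2* window lie in exons. The E-box letters CANNTG occurred once in *Id2* and not in *Id3* or *Id4*, against 66.2% of windows, and the palindromic cyclic AMP response element TGACGTCA (1.55% of windows) in none of them. The core of that element, TGACG, occurred once each in *Id3* and *Id4* and not in *Id2*, against 17.8% of windows. CCAAT occurred 3 times in *Id2* and 2 times in *Id4*, and 33.8% of windows hold it. These are matches of letters, and no binding was measured in these libraries.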

How the data were processed

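RNA was measured in 8 libraries, grouped by the line, Dox state and treatment in the sample titles. Per the labels and the study's methods, the authors made stranded poly(A) libraries, sequenced 75-base single-end reads on a HiSeq, checked them with FastQC 0.11.5, trimmed with Trimmomatic 0.36, aligned to GRCm38 (mm10) with STAR 2.5.3a and counted with featureCounts 1.6.3. The deposited values are raw counts per gene, 1 column per library. Strand and multimapping settings are not given in the sources used here, so counts of overlapping genes are uncertain.

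The deposited counts were tested with edgeR 4.0.16 (R 4.3.3): TMM scaling, low counts removed by filterByExpr (leaving 14301 of 53465 genes), and a quasi-likelihood F-test in 1 model of all 8 libraries, whose terms were the 4 groups and the line. A call needed a Benjamini-Hochberg adjusted p under 0.05 and more than 2-fold. The SE is the log2 difference divided by the square root of F. Values per line are differences of log2 CPM with a prior count of 2. The study used DESeq2 and named no covariate. The line pairs libraries across groups, by the titles. Deviations of the lines from the group means correlated at 0.642 to 0.774 between groups (median 0.758, 6 pairs of groups). Libraries of a group are from different tumors and every condition is 1 culture per line. Floors and totals cover counting error only. Alternatives were edgeR without the line, DESeq2 1.42.0 both with it and without it, size factors of DESeq2 in edgeR, no filter, a filter that asks each library for at least 10 counts, calls on p alone, glmTreat, fits to the 4 libraries compared, and each library left out. Scripts were tested on simulated data. The text names the *Id* genes, *Smad4*, list members called in any of the first 5 comparisons or among the 3 most abundant of their list, and the 5 genes most like each tested *Id* gene. The members and lists were chosen with earlier results of these data known. One allele of the mouse model and 1 gene named by this rule are not reported here.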

Additional observations from a re-analysis of the deposited data

How the results depend on the processing

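No difference of *Id1*, *Id2* or *Id3* that was called changed sign under any alternative. Of the 3 tested members, all 3 were called under TGFβ1 against SB505124 in Smad4-on cells under every alternative and without any library. In Smad4-off cells, edgeR with no replicate block called 0 in place of 3, glmTreat 1, and leaving out a library 1 to 3. For *Smad4* under SB505124, edgeR with no replicate block and glmTreat each called 0 in place of 2, and leaving out a library 1 to 2. For *Smad4* under TGFβ1, 1 member in place of 0 passed with no fold-change rule and 0 to 1 when a library was left out. Between lines, 1 in place of 0 passed with no fold-change rule. The interaction and the line differences in response called 0 throughout. The block changed no other call of a member. CPM on unscaled totals moved no mean over the 8 libraries by more than the SD over these libraries, which includes the treatment difference. Group levels could move by more than the spread between lines. *Id2* in Smad4-off cells under SB505124 went from 64.3 and 65.9 to 67.7 and 68.9 CPM, where the SD was 1.13. Of 32 called differences of *Smad4* and the pathway genes, 17 were called with no replicate block in edgeR and 27 in DESeq2, 17 without each library in turn and 13 under all other settings, and 0 reversed. Where a library is left out, the lone library of its group is taken to vary as the other groups do. The filter on low counts was rerun in these fits, so that 14957 to 15040 genes were tested in place of 14301. GlmTreat tests against 2-fold itself, and other causes were not tested.

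Counts over all genes moved more. Under *Smad4* with TGFβ1, 446 genes were called, against 36 with no replicate block, 261 by DESeq2 without the line, 783 with no filter on low counts, 297 with at least 10 counts in every library, 973 with no fold rule and 79 by glmTreat. Under *Smad4* with SB505124 these were 156 against 2, 97, 403, 77, 228 and 37, and 73 with only the 4 libraries compared. Under treatment in Smad4-on cells they were 1993 against 1035, 1363, 2305, 1293, 4751 and 882, and in Smad4-off cells 848 against 168, 479, 1172, 519, 1888 and 204. The interaction called 27 genes, 0 with no replicate block and 136 by DESeq2 with the line. Between the lines 1197 were called, 488 with at least 10 counts and 570 by glmTreat. In the line difference of the treatment response DESeq2 called 25 genes and edgeR 0. Leaving out a library took the count for *Smad4* under TGFβ1 to between 156 and 453, with 156 and 216 without the Smad4-off TGFβ1 libraries of B73 and B87 and 221 without the Smad4-on TGFβ1 library of B73. Under SB505124 it ran from 46 to 161, with 52 and 91 without the Smad4-off SB505124 libraries of B73 and B87 and 46 without the Smad4-on one of B73. The treatment count in Smad4-off cells ran from 377 to 879, with 475 and 377 without the TGFβ1 libraries of B73 and B87 and 513 without the SB505124 library of B87, and in Smad4-on cells from 1567 to 2101. The interaction fell to 0 to 14 without any one of the 8 libraries.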
